A study of Mus musculus with 4 samples.

Results

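Mitochondrial ribosomal proteins were examined in libraries taken here as tumor-associated macrophages (TAMs) from NB9464 neuroblastomas of mice labelled as carrying or lacking Syk in myeloid cells. The members were all protein-coding genes of the deposited count table whose symbol begins with Mrpl or Mrps and a number, which gave 78 of 54532 genes. By the known structure of the mitochondrial ribosome 26 of them encode small subunit proteins and 51 large subunit proteins. The remaining one, Mrps36, carries the family's name but encodes a part of the ketoglutarate dehydrogenase complex.

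RNA sequencing of 4 libraries was available. The labels name M7 and M8 as Syk MC-WT, here called the WT-labelled libraries, and M9 and M10 as Syk MC-KO, here the KO-labelled libraries. Both kinds of mice were of the C57BL/6 background, and the strain came from a cross of floxed Syk mice with LysM Cre mice, in which Cre is made in cells that express lysozyme M. Syk MC-KO denotes loss of Syk in myeloid cells, and Syk MC-WT denotes the wild-type control. All mice received the same number of NB9464 cells, a mouse neuroblastoma line driven by MYCN, and no treatment, and TAMs were collected at day 40 with CD11b and F4/80 magnetic beads. The labels name both TAMs and bone marrow derived macrophages (BMDMs) as the RNA source, and which is right was not settled here. RNA was enriched for polyadenylated transcripts. The title of the series also names an adoptive transfer, and whether a labelled genotype is that of the host or of transferred cells was not settled here. The labels do not say whether the libraries of a genotype came from separate mice, so every p-value measures only the spread between these libraries.

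Mitochondria keep a ribosome of their own, which descends from a bacterial one and makes only the few inner-membrane proteins of the respiratory chain that the mitochondrial genome still encodes. Its 2 RNAs, 12S and 16S, are transcribed in the organelle, whereas all of its proteins are encoded in the nucleus, made in the cytosol and imported. Many of those proteins have counterparts in bacteria, and others are found only in mitochondria. Macrophages are known to change their use of mitochondrial respiration as they change state.

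The genotype labels were checked first. Syk, the targeted gene, was read at 27.9 and 23.2 CPM (read counts over a library's total, after scaling by the trimmed mean of M-values, TMM) in M7 and M8 and at 196 and 160 in M9 and M10. Its log2 fold change was 2.80 ± 0.19 (SE, adjusted p = 0.00067 by edgeR, with the quasi-likelihood test and Benjamini-Hochberg adjustment used throughout), opposite to the direction that the labels give. Scaled to the macrophage markers described below it was -0.0064, and scaled to pan-leukocyte genes it was -0.83. Each direction below is therefore for the libraries as labelled, Syk MC-KO minus Syk MC-WT. Lyz2, the lysozyme M gene, went the other way, with 296 and 208 CPM in M7 and M8 and 8.64 and 20.2 CPM in M9 and M10.

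The libraries also differed in their makeup. Each of 10 macrophage markers had higher values in the KO-labelled libraries, where they summed to 9531 and 5702 CPM against 1135 and 803, and so were all 6 pan-leukocyte genes, with 4221 and 3025 CPM against 349 and 259. Of 8 fibroblast markers 5 were lower, and the list summed to 4115 and 5031 CPM against 12613 and 14509. In the WT-labelled libraries, fibroblast markers thus summed to more than macrophage markers although the labels name macrophages. Most of that sum was Col1a1 (5662 and 6641 CPM in M7 and M8) and Col3a1 (6158 and 7118 CPM). Without them the fibroblast markers summed to less than the macrophage markers in both libraries, and CPM do not account for gene length. Of 8 endothelial markers 3 were lower (summed CPM 179 and 153 against 221 and 215). Of 10 genes of dividing cells 8 were higher (1261 and 1152 CPM against 667 and 556). Of 6 T cell markers 4 were higher, of 3 B cell markers tested 1 and of 4 neutrophil markers tested 4. Of 8 neuroblastoma markers 3 had no counts in any library, and 1 of the 4 tested was higher. In bulk RNA, fewer cells of a type and less RNA per cell cannot be told apart, and the part of these differences in the values below was not tested.

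Relative to the typical gene, the mitochondrial ribosomal proteins were higher in the KO-labelled libraries. All 78 passed the filter on low counts, with at least 130 counts in every library, and 45 were called higher, none lower and 33 were not called at an adjusted p under 0.05 (edgeR). Over all 16451 genes tested, 22.7% were called higher and 16.7% lower. No member was lower at an unadjusted p under 0.05 either, nor by DESeq2's Wald test, whereas 61 had such a p in edgeR's test. The median log2 fold change of the members was 0.77, and that of all genes tested was 0.02. Both KO-labelled libraries lay above both WT-labelled libraries for 72 of 78 members, compared with 38.0% of all genes tested. The number called varied with the libraries in the fit, as it did over all genes tested. It fell without M7 and most without M8, where the share of members called higher was close to that of all genes. With M7, M8, M9 or M10 left out, the members' median was 0.86, 0.66, 0.62 and 0.83. That of all genes tested was 0.04, 0.03, -0.06 and -0.07 in the same order.

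**Figure D1:**
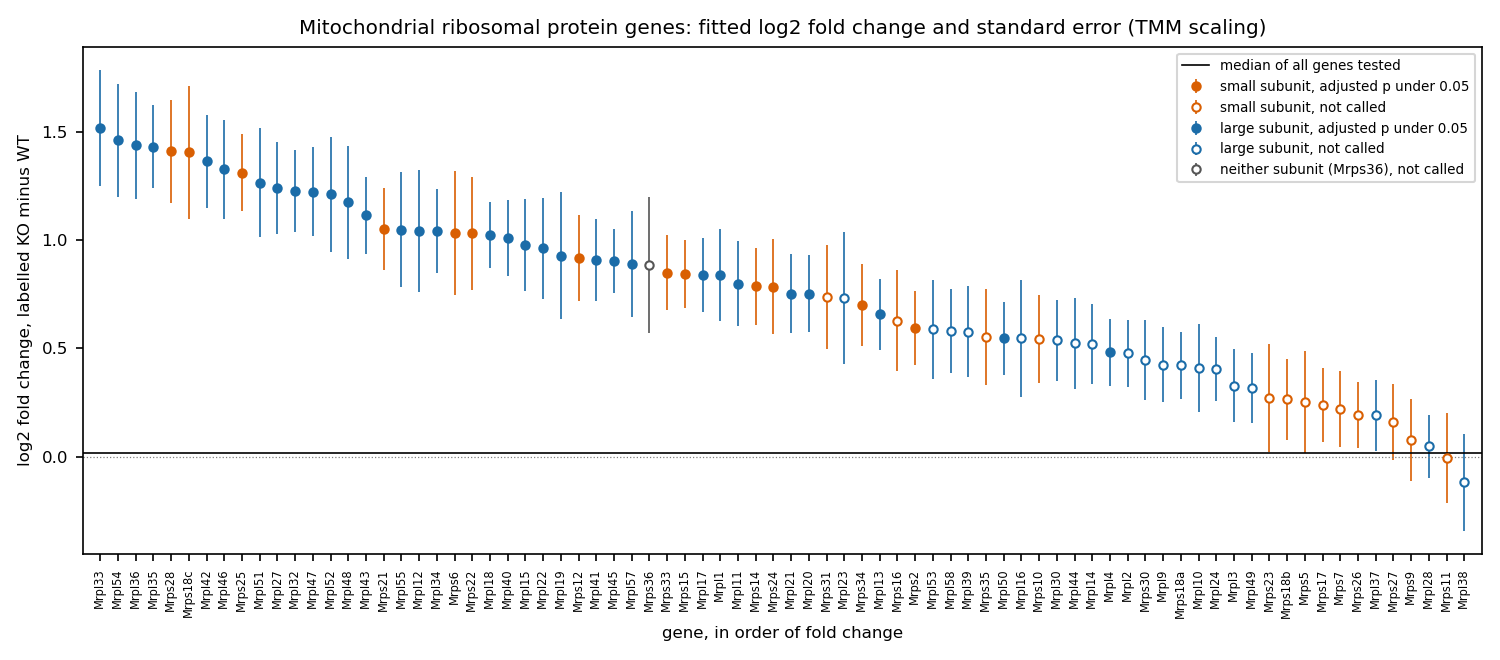
Log2 fold change of each of the 78 genes (vertical axis, KO-labelled minus WT-labelled, TMM scaling) in descending order, with bars for the SE and filled points for an adjusted p under 0.05. The points run from 1.52 (Mrpl33) to -0.12 (Mrpl38), 76 of 78 lie above the median of all genes tested at 0.02, and under scaling to macrophage or pan-leukocyte genes all of them would lie below 0.

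The sign of these changes depended on how the libraries were scaled. Each scaling shifts the log2 fold changes of all genes by nearly the same amount, so the members' place above the median gene could hardly change. TMM factors were 1.22 and 1.19 for M7 and M8 and 0.876 and 0.787 for M9 and M10. As a plain share of all counts, the members took 0.270% and 0.233% in the WT-labelled libraries and 0.290% and 0.258% in the KO-labelled ones, so these shares overlapped. Scaling by library size alone moved the median of all genes to -0.52 and that of the members to 0.24, with 10 members called higher and 1 lower. Of all 16451 genes tested, 1677 were then called higher and 5411 lower. Scaling to the macrophage markers put the 2 medians at -2.78 and -2.01, and scaling to the pan-leukocyte genes at -3.60 and -2.84. All 78 members were called lower under both, as were 14313 and 15270 of all genes tested. The members' median stood above that of all genes by 0.75 under TMM and by 0.76 to 0.77 under library size and the marker scalings, and the same number of members, 76 of 78, lay above the median of all genes in each. The changes below are on the TMM scale, whose median over all genes was close to 0.

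**Figure D2:**
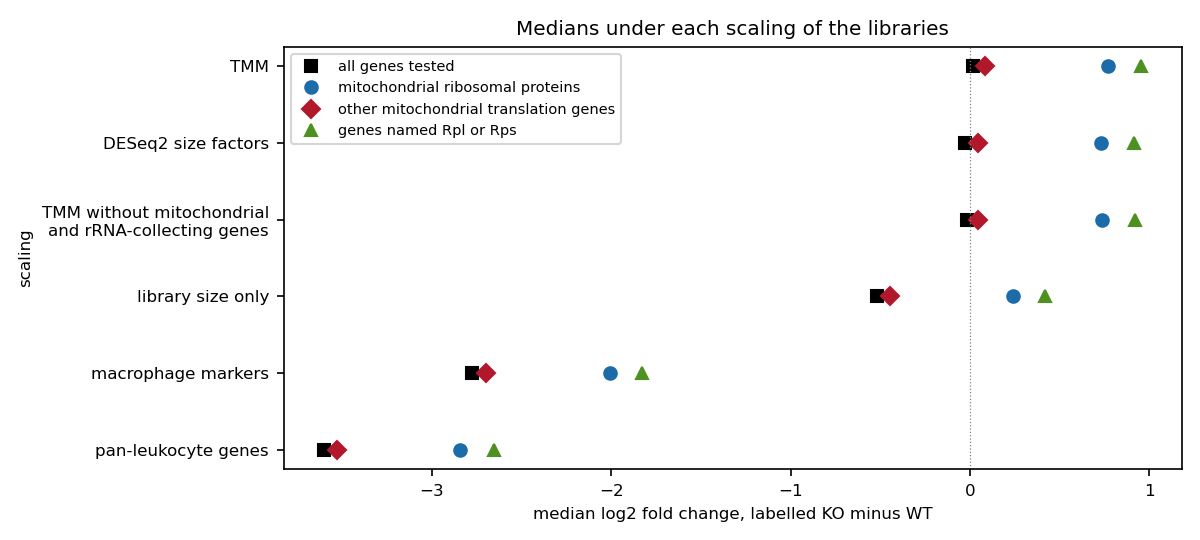
Median log2 fold change (horizontal axis, KO-labelled minus WT-labelled) of all genes tested, the 78 mitochondrial ribosomal proteins, 64 other genes of mitochondrial translation and the genes named Rpl or Rps, under 6 scalings (vertical axis). The 4 medians move together from near or above 0 under TMM to well below 0 under the marker scalings. The distance of the members from all genes stays at 0.75 to 0.77, because a scaling shifts all genes nearly alike.

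The members moved within a narrower range than all genes tested, but not than the cytosolic ribosomal proteins. The middle 50% of their fold changes spanned 0.56 log2 units, against 1.44 for all genes tested. For the 90 tested genes named Rpl or Rps it spanned 0.46. All genes tested include genes with far fewer counts than any member. M9 was the highest library for 45 members and M10 for 33, and no member was highest in a WT-labelled library. M8 was the lowest library for 66 of 78, and M7 lay above M8 for 66. The summed level of all members was 2209 and 1966 CPM in M7 and M8 and 3308 and 3288 CPM in M9 and M10.

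**Figure D3:**
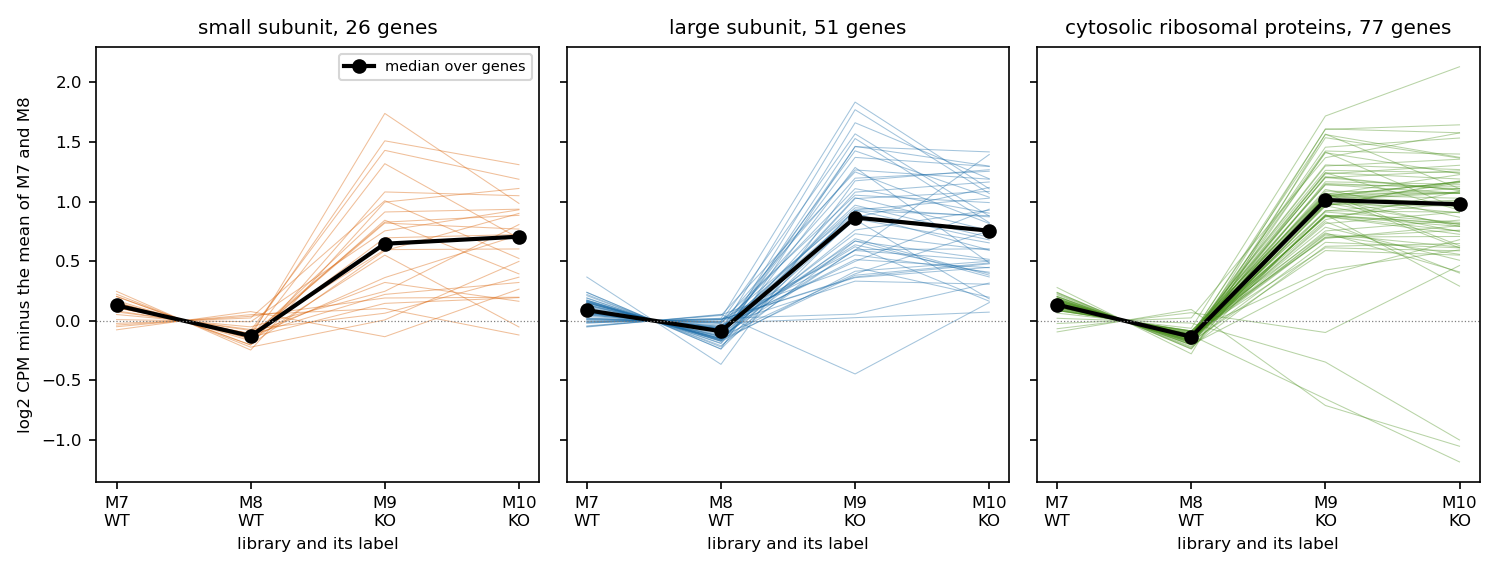
Log2 CPM of each gene in each library, minus the mean of M7 and M8 (vertical axis, TMM scaling), for 26 small subunit members, 51 large subunit members and 77 cytosolic ribosomal proteins, with the median over genes in black. The subtraction centres the WT-labelled libraries on 0 for every gene. Both KO-labelled libraries lie above for nearly all genes on this scale, M8 is the lowest library for 66 members, and under the marker scalings the direction reverses.

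The small and the large subunit shared the direction. Of 26 small subunit genes 13 were called higher, the median log2 fold change being 0.66, and of 51 large subunit genes 32 were, with a median of 0.84. Over all genes tested 22.7% were called higher. The numbers called fell without M7 and most without M8, as they did over all genes tested. Without M8 neither subunit's share was far above that of all genes. For the small and the large subunit the medians were 0.51 and 0.69 without M8, and 0.77 and 0.92 without M7. Of the 47 members classed as having a bacterial counterpart 29 were called higher (median 0.79), and of the 30 classed as found only in mitochondria 16 were (median 0.72). The difference between these groups was not tested, since members are not replicates. Under library size scaling the medians of the small and large subunit were 0.13 and 0.30, and under the marker scalings both were negative.

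The members with the largest rises, all called by edgeR's quasi-likelihood test, were Mrpl33, Mrpl54, Mrpl36, Mrpl35 and Mrps28. Mrpl33, the counterpart of a bacterial large subunit protein (GRCm38 chr5:31596935-31664384, plus strand), was read at 13.1 and 13.4 CPM in M7 and M8 and at 47.3 and 28.6 CPM in M9 and M10, a log2 fold change of 1.52 ± 0.27 (SE, adjusted p = 0.0072 by edgeR). Its 2 KO-labelled libraries differed from each other by more than the WT-labelled ones, and the groups did not overlap. Mrpl54, a large subunit protein of mitochondria only (chr10:81264713-81266934, minus strand), was read at 17.9 and 15.9 CPM in M7 and M8 and at 57.6 and 35.4 CPM in M9 and M10 (log2 fold change 1.46 ± 0.26, SE, adjusted p = 0.0075 by edgeR). Mrpl36, a small protein with a bacterial counterpart (chr13:73328513-73332178, plus strand), was at 11.4 and 9.16 CPM in M7 and M8 and at 32.4 and 23.4 CPM in M9 and M10 (1.44 ± 0.25, adjusted p = 0.0067 by edgeR). In these genes M9 was above M10.

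Mrpl35, a further large subunit protein (chr6:71812997-71826969, minus strand), was at 14.2 and 11.5 CPM in M7 and M8 and at 35.1 and 34.1 CPM in M9 and M10, so the replicates were close (1.43 ± 0.19, adjusted p = 0.0031 by edgeR). Mrps28, a small subunit protein (chr3:8802146-8923918, minus strand), was at 7.36 and 6.35 CPM in M7 and M8 and at 19.5 and 16.9 CPM in M9 and M10 (1.41 ± 0.24, adjusted p = 0.0062 by edgeR). All 5 fold changes remained positive under library size scaling, from 0.88 to 1.0, and were negative under scaling to macrophage or pan-leukocyte genes.

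The other end of the order held members that were not called. Mrps11 (chr7:78783119-78792989, plus strand), the counterpart of a bacterial protein near the site where the messenger is read, was at 15.9 and 17.0 CPM in M7 and M8 and at 17.7 and 15.1 CPM in M9 and M10, with a log2 fold change of -0.0049 ± 0.21 (adjusted p = 0.99 by edgeR). The ranges overlapped. Mrpl38, a large subunit protein of mitochondria only, was at 120 and 129 CPM in M7 and M8 and at 91.5 and 139 CPM in M9 and M10 (-0.12 ± 0.22, adjusted p = 0.70 by edgeR). Its KO-labelled libraries enclosed both of the others. Mrpl28 was at 53.9, 52.4, 54.1 and 55.9 CPM in M7, M8, M9 and M10 (0.05 ± 0.15, adjusted p = 0.81), and its fold change was -0.49 under library size scaling. Mrps7, whose bacterial counterpart binds the small ribosomal RNA, was at 126, 114, 125 and 155 CPM in M7, M8, M9 and M10 (0.22 ± 0.17, adjusted p = 0.35), and its fold change was -0.32 under library size scaling.

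Levels between genes were compared per length, as counts per kilobase of summed exons scaled to a common total (TPM). The 5 highest members by the mean of the 4 libraries were Mrpl12 (253 ± 36.0 TPM, SD, n = 4), Mrps7 (178 ± 59.1), Mrps21 (168 ± 30.2), Mrpl38 (138 ± 62.2) and Mrpl28 (114 ± 43.9). Mrpl12 was above Mrps7 by more than either SD over the 4 libraries, and the neighbours below it in that order were closer than the larger of their SDs. In the WT-labelled libraries alone, Mrpl12 (257 ± 39.4 TPM, SD, n = 2) and Mrps7 (228 ± 22.5) were closer than the SD of Mrpl12. The 5 lowest were Mrpl23 (3.95 ± 0.55 TPM), Mrps22 (8.19 ± 1.43), Mrpl33 (8.71 ± 3.67), Mrpl47 (8.93 ± 1.26) and Mrps10 (9.02 ± 2.07). Of the 5 highest, Mrps7, Mrpl38 and Mrpl28 were not called. With the longest transcript as the length, the same 5 genes were highest, and 3 of the 5 lowest, Mrpl23, Mrps22 and Mrpl47, remained among the lowest 5. Mrpl33, with the largest rise, then stood at rank 60 with 18.5 TPM, in place of rank 76 with 8.71 TPM, so its place near the bottom depended on the length used.

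The order of members hardly differed between genotypes. The Spearman correlation of mean TPM in the WT-labelled and the KO-labelled libraries was 0.94 across 78 genes, which are not independent replicates and share gene length. The 90th percentile was 7.36 times the 10th in the WT-labelled libraries and 7.50 times in the KO-labelled ones. The median member was at 34.7 and 26.9 TPM, lower in the KO-labelled libraries and so opposite in direction to the TMM scale. TPM are shares of a total, of which mitochondrial genome transcripts took 8.22% and 8.46% in M7 and M8 and 16.6% and 36.8% in M9 and M10. The median cytosolic gene named Rpl or Rps was at 631 and 594 TPM.

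The stalk of the large subunit draws translation factors to the ribosome, and its proteins differed in their calls. Mrpl12, which forms the stalk and has also been described as a partner of mitochondrial RNA polymerase, was at 109 and 91.2 CPM in M7 and M8 and at 150 and 262 CPM in M9 and M10 (log2 fold change 1.04 ± 0.28, adjusted p = 0.028 by edgeR). M10 was far above M9 here, against the order in Mrpl33 and Mrpl54. Mrpl11, at the base of the stalk, was at 26.4 and 20.8 CPM against 44.6 and 37.5 CPM (0.80 ± 0.20, adjusted p = 0.021). Mrpl10, which anchors Mrpl12, was at 31.5 and 29.0 CPM in M7 and M8 and at 46.5 and 33.8 CPM in M9 and M10 (0.41 ± 0.20, adjusted p = 0.15), and its fold change was -0.11 under library size scaling.

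Proteins of the inner face and of rescue were next. Mrpl45, which holds the ribosome at the inner membrane, was at 34.0 and 33.2 CPM in M7 and M8 and at 63.7 and 61.9 CPM in M9 and M10, with close values within each genotype (0.90 ± 0.15, adjusted p = 0.0058 by edgeR). Mrpl58, a peptidyl-tRNA hydrolase that frees stalled ribosomes, was at 43.7 and 36.2 CPM against 52.2 and 67.1 CPM (0.58 ± 0.19, adjusted p = 0.055). Mrpl44, which has the fold of an RNase III enzyme, was at 16.4 and 14.5 CPM against 24.5 and 19.9 CPM (0.52 ± 0.21, adjusted p = 0.090), and its fold change was -0.0045 under library size scaling. For both of the last genes the groups did not overlap, although neither was called.

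The 3 relatives of bacterial protein S18 had positive fold changes of unequal size. Mrps18c was at 9.15 and 7.61 CPM in M7 and M8 and at 27.9 and 16.5 CPM in M9 and M10 (log2 fold change 1.4 ± 0.31, adjusted p = 0.014 by edgeR). Mrps18b was at 22.1 and 18.8 CPM against 23.7 and 25.4 CPM (0.27 ± 0.19, adjusted p = 0.29), and Mrps18a, which despite its name sits in the large subunit, was at 32.2 and 32.7 CPM against 41.8 and 45.2 CPM (0.42 ± 0.15, adjusted p = 0.071). In the grouping above Mrps18b was classed among the members found only in mitochondria, although it is such a relative. The fold changes of Mrps18c, Mrps18b and Mrps18a under library size scaling were 0.89, -0.27 and -0.11. The difference between the relatives was not tested.

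Among other members of known place, Mrps12, the counterpart of a bacterial protein of the decoding site, was at 14.7 and 12.2 CPM in M7 and M8 and at 25.2 and 25.6 CPM in M9 and M10 (0.92 ± 0.20, adjusted p = 0.014 by edgeR). Mrps30, a large subunit protein in spite of its symbol, was at 31.8 and 25 CPM against 37.6 and 39.8 CPM (0.45 ± 0.18, adjusted p = 0.098), and its fold change was -0.092 under library size scaling. Mrps36, the ketoglutarate dehydrogenase protein, was at 14.0 and 11.5 CPM against 30.2 and 16.8 CPM, with M9 well above M10 (0.88 ± 0.31, adjusted p = 0.066). Of the remaining genes of highest and lowest level, Mrps21 (1.05 ± 0.19, adjusted p = 0.0075), Mrpl47 (1.22 ± 0.21, adjusted p = 0.0062) and Mrps22 (1.03 ± 0.26, adjusted p = 0.023) were called higher by edgeR, and Mrps10 (0.54 ± 0.20, adjusted p = 0.078) was not.

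Mrpl23 has an annotated processed pseudogene that was also counted, so its value is uncertain. Mrpl23 had 155, 130, 159 and 192 counts in M7, M8, M9 and M10, the fewest of any member, and a log2 fold change of 0.73 ± 0.30 (adjusted p = 0.10 by edgeR). Mrpl23-ps1, annotated as a processed pseudogene (chr2:74591330-74591909), had 355, 267, 758 and 593 counts in the same libraries and was called higher (1.54 ± 0.20, adjusted p = 0.0026). Reads could have been divided between the 2 during quantification. The other 4 annotated pseudogenes of the family had 0 or 1 count per library.

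Of 5 subunits of the mitochondrial ribosome whose symbols do not begin with Mrp, 3 were called higher by edgeR. Aurkaip1 was at 38.0 and 35 CPM in M7 and M8 and at 79.4 and 70.2 CPM in M9 and M10 (1.03 ± 0.16, adjusted p = 0.0045). Gadd45gip1 was at 39.7 and 35.4 CPM against 67.0 and 70.7 CPM (0.88 ± 0.15, adjusted p = 0.0073), and Chchd1 was at 19.0 and 20.9 CPM against 37.3 and 32.9 CPM (0.81 ± 0.17, adjusted p = 0.013). Dap3, a guanine nucleotide binding protein of the small subunit, had a fold change of 0.28 ± 0.17 (adjusted p = 0.22), and Ptcd3 had -0.28 ± 0.20 (adjusted p = 0.30). Under library size scaling the 3 called genes stayed positive (0.50, 0.34 and 0.28), and Dap3 turned to -0.25.

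The ribosomal RNAs and messengers of the organelle itself differed far more than the proteins. The 12S RNA gene mt-Rnr1 was at 362 and 757 CPM in M7 and M8 and at 2422 and 6758 CPM in M9 and M10 (log2 fold change 3.04 ± 0.60, adjusted p = 0.010 by edgeR). The 16S RNA gene mt-Rnr2 was at 406 and 1108 CPM against 2272 and 8735 CPM (2.86 ± 0.75, adjusted p = 0.026). For both genes M8 was above M7 and M10 far above M9. All 13 mitochondrial messengers were called higher, with a median of 2.88, which was 1.83 without M10, 2.30 under library size scaling, 0.24 under macrophage scaling and -0.62 under pan-leukocyte scaling. Mitochondrial genome transcripts took 2.20% and 2.34% of all counts in M7 and M8 and 6.00% and 15.9% in M9 and M10. The libraries were polyA enriched, and the 2 ribosomal RNAs carry only short tails, so their levels are of those molecules that were captured.

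The remaining machinery of mitochondrial translation did not move with the ribosomal proteins as a list. Of 64 genes for transcription, ribosome assembly, translation factors and tRNA synthetases, 6 were called higher and 8 lower (edgeR). These were 9.4% and 12.5% of the list, against 22.7% and 16.7% of all genes tested. The median log2 fold change of the 64 was 0.09, close to that of all genes tested. The members' median was above theirs by 0.68 under TMM and by 0.69 under library size and the marker scalings, which shift all genes nearly alike. The median of the 64 was 0.07 without M8 and 0.13 without M7. Fewer of them were called in both of these fits, as over all genes tested.

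Of 25 assembly genes 2 were called in each direction and the median was 0.04. Rbfa, a maturation factor of the small subunit (0.63 ± 0.16, adjusted p = 0.026), and the helicase Ddx28 (1.09 ± 0.27, adjusted p = 0.022) were higher. The RNA methyltransferase Nsun4 (-0.77 ± 0.24, adjusted p = 0.047) and the pseudouridine synthase Trub2 (-1.03 ± 0.19, adjusted p = 0.0077) were lower, all by edgeR's quasi-likelihood test. Trub2 was at 34.8 and 37.1 CPM in M7 and M8 and at 19.4 and 15.7 CPM in M9 and M10.

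Of 15 translation factors 2 were called higher and 2 lower, with a median of 0.47. Tufm, the elongation factor that brings tRNA to the ribosome, was at 61.3 and 53.2 CPM in M7 and M8 and at 88.8 and 106 CPM in M9 and M10 (0.77 ± 0.17, adjusted p = 0.015 by edgeR), and Gfm1, the translocation factor, rose by 0.58 ± 0.18 (adjusted p = 0.042). Mtfmt, which formylates the initiator tRNA, was at 25.3 and 29.3 CPM against 10.9 and 8.06 CPM (-1.52 ± 0.23, adjusted p = 0.0047), and Guf1 had -0.84 ± 0.17 (adjusted p = 0.012).

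Of 17 mitochondrial tRNA synthetases 2 were called higher, among them Fars2 (1.02 ± 0.32), and 4 were called lower. The lower ones were Vars2 (-1.38 ± 0.20), Mars2 (-1.19 ± 0.20), Aars2 (-0.70 ± 0.18) and Hars2 (-0.65 ± 0.20), with adjusted p-values from 0.0036 to 0.045 (edgeR). The median was 0.00. Lars2, at 1977, 5341, 3068 and 7488 CPM in M7, M8, M9 and M10, is known to collect reads of cytosolic ribosomal RNA, and its level followed neither genotype (0.53 ± 0.59, adjusted p = 0.51). The 7 genes of mitochondrial transcription had a median of 0.04 and adjusted p-values from 0.10 (Mterf2, -1.18 ± 0.49) upward in edgeR's test. Among them Tfam, which packs mitochondrial DNA, was at 35, 29.0, 33.3 and 32.7 CPM in M7, M8, M9 and M10 (0.04 ± 0.17, adjusted p = 0.86), and Polrmt, the RNA polymerase, had 0.21 ± 0.30 (adjusted p = 0.61). Both of these turned negative under library size scaling (-0.49 and -0.33).

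**Figure D4:**
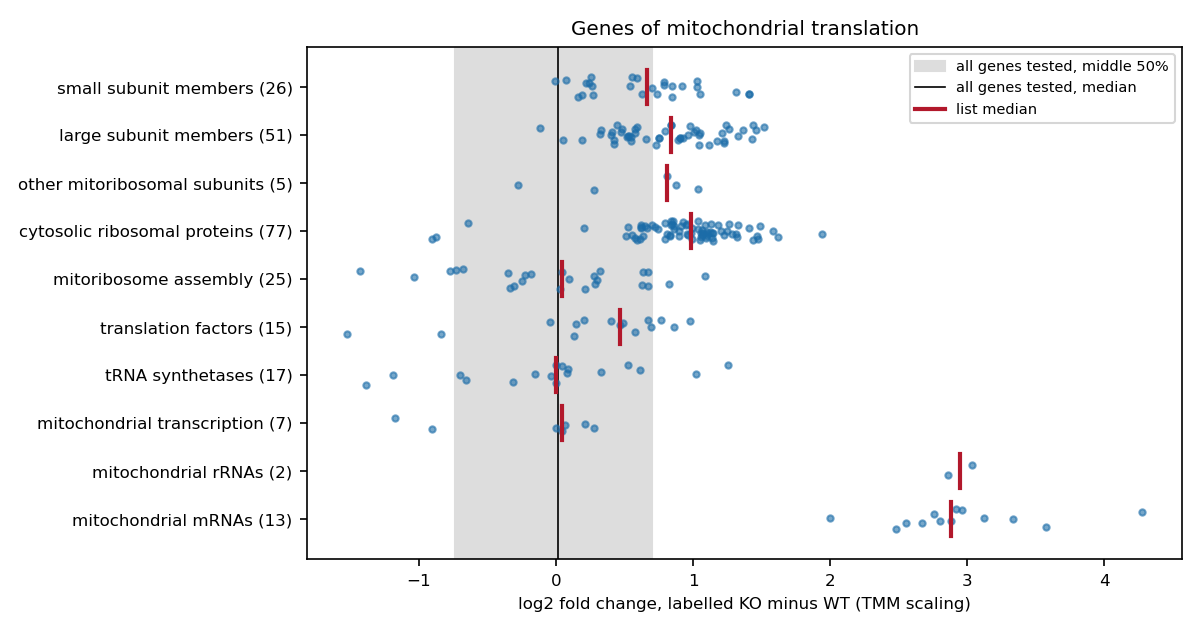
Log2 fold change (horizontal axis, KO-labelled minus WT-labelled, TMM scaling) of each tested gene in 10 lists (vertical axis, number of genes in brackets), with list medians in red and the middle 50% of all genes tested in grey. The subunit members (medians 0.66 and 0.84) and cytosolic ribosomal proteins (0.98) lie to the right of the assembly, synthetase and transcription lists (0.04, 0.00 and 0.04), the translation factors lie between (0.47), mitochondrial RNAs lie farther right, and under macrophage scaling the median of the 78 members is -2.01.

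The proteins of the cytosolic ribosome moved in the same direction as the members. By symbol 98 protein-coding genes began with Rpl or Rps and a number, of which 90 were tested, 71 were called higher and 2 lower, and their log2 fold changes had a median of 0.95. Leaving out 17 kinases, binding proteins and gene copies with such symbols, 77 of 81 were tested, 65 were higher, 2 were lower and the median was 0.98. The 2 lower genes, named after their values were seen, were Rpl12 (-0.88) and Rps27 (-0.90). The members' median was below that of the 90 by 0.18 under TMM, library size and macrophage scaling, which shift all genes nearly alike. Over all genes tested 22.7% were called higher and 16.7% lower. The number of the 90 called higher fell without M7 and most without M8, where their share was close to that of all genes. The median of the 90 was 1.08 without M7 and 0.81 without M8.

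A list of 10 genes known as regulators of nuclear genes for mitochondria was examined, and 4 of the 9 tested were called higher by edgeR. Myc, which drives ribosome genes of both kinds, was at 9.41 and 8.02 CPM in M7 and M8 and at 27.7 and 22.4 CPM in M9 and M10 (1.52 ± 0.22, adjusted p = 0.0041). The mouse gene Mycn was at 22.2 and 21.4 CPM against 29.3 and 43.5 CPM (0.74 ± 0.23, adjusted p = 0.041 by edgeR). The nuclear receptor Esrra (0.65 ± 0.16, adjusted p = 0.020) and Nrf1 (0.55 ± 0.18, adjusted p = 0.049) were also called. Under library size scaling Myc was at 1.0, Esrra at 0.12, Mycn at 0.19 and Nrf1 at 0.01.

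Of the list's genes tied to ETS or YY1 motifs, Gabpa, its partner Gabpb1 and Yy1, none was called. Other ETS family factors were not examined. Gabpa had -0.16 ± 0.21 (adjusted p = 0.57 by edgeR), Gabpb1 0.11 ± 0.17 (0.66) and Yy1 0.51 ± 0.20 (adjusted p = 0.086). Of the coactivators, Ppargc1b had 1.08 ± 0.42 (adjusted p = 0.082) and Pprc1 -0.63 ± 0.26 (adjusted p = 0.10), and Ppargc1a was too low to be tested. Under library size scaling Gabpb1 and Yy1 turned to -0.43 and -0.010.

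Promoters were then compared for the sites of such factors, since many nuclear genes for mitochondria are known to start from promoters without a TATA box. RefSeq windows on GRCm38.p6, from 250 bases before to 50 bases after the start, were found for 69 of 78 members, 75 windows in all. Those of Mrpl4, Mrpl13, Mrpl15, Mrpl19, Mrpl38, Mrpl54, Mrps28, Mrps34 and Mrps35 were not analysed here. Letters of the ETS motif, CCGGAAG, were present on either strand in 34.7% of member windows and in 11.9% of 20150 windows of all protein-coding genes. The YY1 motif, AAGATGGC, was in 16% against 3.11%, and the NRF1 motif, GCGCATGC, in 10.7% against 3.65%. At least 1 of these 3 stood in 50.7% of member windows against 17.2% of all windows, and no 2 different motifs overlapped in a member window. CCAAT was about equally frequent (40.0% against 37.8%), and TATAAA was in 6.67% against 12.1%. The member windows were also richer in CpG, which the ETS and NRF1 letters contain, with a median observed over expected ratio of 0.82 against 0.59 in all windows, and the windows of all protein-coding genes include genes not tested here. The part of these differences in the motif shares was not tested. A match describes the letters of the window and is no evidence of binding.

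The windows of members at the top and bottom of the order are given 5′ to 3′ on the gene's strand, with matches to the NRF1, ETS and YY1 letters or their reverse complements in capitals. Mrpl33 had the largest rise and carries an NRF1 and an ETS match side by side around its start (chr5:31613701-31614000, plus strand), and Mrpl36 carries a YY1 match on the other strand (chr13:73330759-73331058, plus strand). Mrps12 is shown for its ETS and YY1 matches (chr7:28741772-28742071, minus strand). Mrps11 (chr7:78782881-78783180, plus strand), which was not called, and Mrpl46 (chr7:78783040-78783339, minus strand), which was, are shown because they start head to head.
Mrpl33: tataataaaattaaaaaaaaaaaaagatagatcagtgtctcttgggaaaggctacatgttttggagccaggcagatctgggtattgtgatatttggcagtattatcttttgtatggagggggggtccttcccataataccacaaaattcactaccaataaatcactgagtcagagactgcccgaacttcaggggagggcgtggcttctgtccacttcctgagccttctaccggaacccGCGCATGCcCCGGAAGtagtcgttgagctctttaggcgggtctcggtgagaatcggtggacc
Mrpl36: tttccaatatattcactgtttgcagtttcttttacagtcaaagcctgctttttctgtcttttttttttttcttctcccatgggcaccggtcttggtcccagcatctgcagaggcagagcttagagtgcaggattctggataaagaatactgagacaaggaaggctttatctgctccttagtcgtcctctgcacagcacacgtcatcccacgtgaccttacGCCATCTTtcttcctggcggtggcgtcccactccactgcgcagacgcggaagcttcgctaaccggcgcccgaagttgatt
Mrps12: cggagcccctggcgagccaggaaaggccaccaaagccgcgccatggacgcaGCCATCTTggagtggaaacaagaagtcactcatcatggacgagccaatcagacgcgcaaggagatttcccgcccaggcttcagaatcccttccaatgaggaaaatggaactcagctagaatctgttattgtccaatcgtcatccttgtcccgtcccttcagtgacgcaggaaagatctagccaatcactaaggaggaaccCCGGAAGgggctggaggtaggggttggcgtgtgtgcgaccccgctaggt
Mrps11: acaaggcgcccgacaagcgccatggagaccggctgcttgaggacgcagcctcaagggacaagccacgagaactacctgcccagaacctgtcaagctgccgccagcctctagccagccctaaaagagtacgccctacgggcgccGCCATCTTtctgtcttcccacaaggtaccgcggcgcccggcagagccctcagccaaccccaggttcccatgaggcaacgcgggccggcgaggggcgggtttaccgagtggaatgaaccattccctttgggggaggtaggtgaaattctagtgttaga
Mrpl46: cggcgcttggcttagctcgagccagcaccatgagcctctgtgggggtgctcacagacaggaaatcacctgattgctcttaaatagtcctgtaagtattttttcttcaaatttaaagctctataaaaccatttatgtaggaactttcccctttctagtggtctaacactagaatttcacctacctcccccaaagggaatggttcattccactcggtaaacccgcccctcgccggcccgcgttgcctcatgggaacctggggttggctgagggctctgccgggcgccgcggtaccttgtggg

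Members with and without these letters had overlapping fold changes, which were not compared by a test. The 38 members with at least 1 of the 3 motifs had a median of 0.84 (log2 fold change) and the 31 without one had 0.74. The 26 with the ETS letters had 0.90 and the 43 without 0.73, the 12 with the YY1 letters 0.60 and the 57 without 0.79, and the 8 with the NRF1 letters 0.71 and the 61 without 0.79. Of the windows printed, both Mrpl36, which was called higher, and Mrps11, which was not called, hold a YY1 match.

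Mrps11 and Mrpl46 start 42 bases apart on opposite strands by RefSeq (412 by the gene starts of GENCODE), and their windows share 141 bases. Mrpl46, a large subunit protein, was at 8.20 and 6.88 CPM in M7 and M8 and at 19.4 and 18.4 CPM in M9 and M10 (log2 fold change 1.33 ± 0.23, adjusted p = 0.0067 by edgeR), whereas Mrps11 had the values given above. Both KO-labelled libraries were above the others for Mrpl46 and lay on either side of them for Mrps11. Exons of the pair overlap in the annotation.

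A start next to a gene on the other strand was common among the members. In GENCODE, 25 of 78 (32.1%) had another protein-coding gene starting within 500 bases on the opposite strand, compared with 12.7% of 13965 protein-coding genes tested. Of the 22 such neighbours that were tested and were no members, 4 were called higher and 3 lower by edgeR. These shares were near the 22.7% and 16.7% of all genes tested. Their median log2 fold change was -0.23 and that of their members was 0.68. The member's fold change was the larger in 20 of 22 pairs, and by over 1 in 11 of them. Another scaling of the libraries moves both genes of a pair together.

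Some pairs moved alike. Mrpl36 and Ndufs6, which encodes a complex I subunit, start 29 bases apart and had 1.44 and 1.21, and Mrpl32 and Psma2, a proteasome subunit gene, start 75 bases apart and had 1.23 and 1.15. Other pairs differed. Mrps34 (0.70) and Eme2 (-1.11) start 29 bases apart, and Mrpl44 (0.52) and Wdfy1 (-1.39) start 125 bases apart. Mrps12 shares its start region with the mitochondrial synthetase gene Sars2, 172 bases away, and the pair had 0.92 and 0.08. The 2 pairs in which the neighbour was the higher were Mrpl49 with Fau (0.32 and 1.10), Fau encoding a cytosolic ribosomal protein fused to a ubiquitin-like one, and Mrps27 with Ptcd2 (0.16 and 1.51). These pairs were named after their values were seen.

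**Figure D5:**
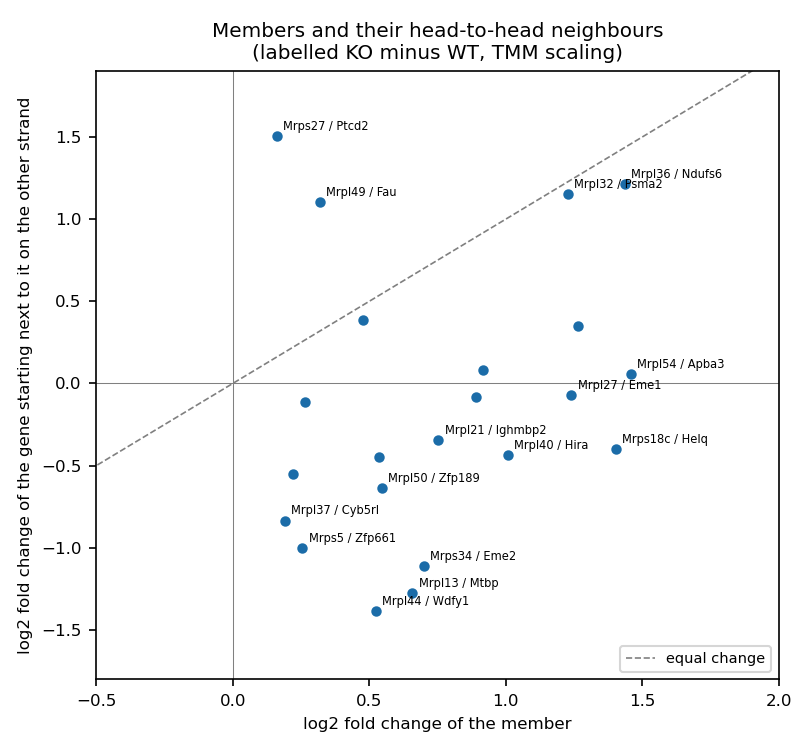
Log2 fold change (KO-labelled minus WT-labelled, TMM scaling) of 22 members (horizontal axis) and of the protein-coding gene that starts within 500 bases on the opposite strand (vertical axis), with a dashed line of equal change. In 20 of 22 pairs the point lies below the line, and another scaling would shift all points along the line's direction and leave their distance from it as it is.

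Neighbouring genes can also share reads. An exon of 33 of 78 members overlaps another gene in the annotation, 8 of them a gene on the same strand, and whether reads were assigned by strand is not given in the sources used here. Of these 33 members 18 were called higher (median log2 fold change 0.70), and of the 45 without such an overlap 27 were (0.80). Such an overlap applies to Mrpl10, Mrpl12, Mrpl33, Mrpl36, Mrpl44, Mrpl46, Mrpl47, Mrpl49, Mrpl58, Mrps7, Mrps11, Mrps18b, Mrps18c, Mrps27, Mrps30 and Mrps34 among the members described above, so their values are uncertain to that extent.

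Gene length moved little with the fold change among the members. The Spearman correlation of the log2 fold change with the longest transcript was -0.16 across the 78 members, -0.26 across 13965 protein-coding genes tested and -0.34 across the 90 cytosolic genes named Rpl or Rps, all across genes that share the same 4 libraries. The medians of the shortest, middle and longest 26 members were 0.91, 0.54 and 0.82, so the change did not follow length in order.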

How the data were processed

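The deposited file holds raw counts of reads for each Ensembl gene, which the authors made by mapping to mm10 with STAR and quantifying with Salmon. The submitters' processing notes name STAR 2.6.1d and Salmon 1.4.0, and how counts were rounded is not given in the sources used here. Totals were 22448600, 20755886, 23518045 and 23351087 counts for M7, M8, M9 and M10, and the smallest detectable signal was taken as 3 counts, which covers counting error only. Symbols, positions and exon lengths came from GENCODE M21 on GRCm38 (54495 of 54532 genes matched).

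Genotypes, taken from the labels, were compared with edgeR 4.0.16 in R 4.3.3 (TMM factors, filterByExpr, quasi-likelihood test, no block) with Benjamini-Hochberg adjustment over all 16451 genes that passed, at a threshold of 0.05. The SE was the absolute fold change divided by the root of F. On simulated counts for this comparison, run on 16302 genes, 198 of 200 genes changed by a log2 fold of 2 were recovered with 4 false calls by edgeR, and 187 with 10 false calls by DESeq2 (run on 25650 genes). Smaller changes, such as most of those of the members, were not simulated. The simulation gave all genes the same spread and, apart from the changed genes, both genotypes the same mean profile. It lacked the difference in makeup of the real libraries, so its false calls are no measure of those here. An exact permutation test of one gene (two-sided, 2 against 2 libraries) cannot go below p = 0.333. Replicates of each genotype differed by more than sampling noise. DESeq2 1.42.0, other scalings, filters and thresholds, and each library left out in turn served as alternatives. Levels per length divided counts by the summed exon length, or by the longest transcript as an alternative.

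Members, gene lists, promoter motifs and tests were chosen with earlier results of these data known. Named members were the 5 with the largest rise and fall among those called, the 5 highest and 5 lowest per length, and 12 fixed by role. Mrps11, Mrpl46, the members named in head-to-head pairs and genes named from other lists were chosen after their values were seen. Promoters came from RefSeq. The methods describe single reads in triplicate, whereas the labels describe paired reads and give 2 libraries per genotype, and the labels name both TAMs and BMDMs as the RNA source. The libraries were taken as TAMs. The values of 1 tRNA synthetase gene are not reported here.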

Additional observations from a re-analysis of the deposited data

How the results depend on the processing

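No paired analysis was possible because the labels give the libraries of the 2 genotypes different numbers. The number of members called higher was 42 with DESeq2 size factors, 42 with the DESeq2 Wald test, 42 without mitochondrial and rRNA-collecting genes, 49 with all genes of at least 1 count and 43 with at least 10 counts in every library. A log2 fold change of at least 1 left 24 members (6 small, 18 large), 38 genes named Rpl or Rps (0 lower), and 3 higher and 4 lower of the other mitochondrial translation genes. An adjusted p under 0.1 gave 61 members, 5 lower genes named Rpl or Rps and 13 higher other translation genes. With library size only, 10 members were higher (2 small, 8 large) and 1, a large subunit gene, lower, with 15 higher and 6 lower genes named Rpl or Rps, 0 higher and 16 lower other translation genes and a members' median of 0.24. Scaled to macrophage markers, 0 members were higher and 78 lower (26 small, 51 large and Mrps36), 88 genes named Rpl or Rps and 64 other translation genes were lower, and the members' median was -2.01, and scaled to pan-leukocyte genes these were 0, 78, 89, 64 and -2.84. Lower genes named Rpl or Rps numbered 4 with the Wald test, 5 with at least 1 count and 4 with at least 10 counts, and at least 1 count gave 9 higher and 12 lower other translation genes. Leaving out 1 library gave 7 to 58 higher and 0 to 1 lower members, 1 to 16 and 0 to 0 small and 6 to 41 and 0 to 1 large subunit members, 10 to 80 and 0 to 6 genes named Rpl or Rps, 0 to 11 and 3 to 14 other translation genes, and members' medians of 0.62 to 0.86, and a library then left alone was assumed to vary like the others. By the longest transcript, median levels were 37.9 and 28.5 TPM. The cause of the differences between settings was not tested, beyond the shift of the median of all genes that each scaling sets. With macrophage scaling, the log2 fold change was -1.78 for Aurkaip1, -2.02 for Chchd1, -2.50 for Dap3, -2.16 for Esrra, -2.66 for Gabpb1, -1.90 for Gadd45gip1, -2.26 for Lars2, -2.43 for Mrpl10, -2.0 for Mrpl11, -1.65 for Mrpl12, -2.01 for Mrpl23, -2.74 for Mrpl28, -1.37 for Mrpl33, -1.35 for Mrpl35, -1.39 for Mrpl36, -2.30 for Mrpl44, -1.90 for Mrpl45, -1.56 for Mrpl47, -1.41 for Mrpl54, -2.16 for Mrpl58, -2.19 for Mrps10, -1.86 for Mrps12, -2.37 for Mrps18a, -2.50 for Mrps18b, -1.46 for Mrps18c, -1.72 for Mrps21, -1.71 for Mrps22, -1.40 for Mrps28, -2.31 for Mrps30, -1.99 for Mrps36, -2.53 for Mrps7, -1.29 for Myc, -1.99 for Mycn, -2.24 for Nrf1, -2.56 for Polrmt, -1.68 for Ppargc1b, -0.0064 for Syk, -2.74 for Tfam, -1.98 for Tufm and -2.32 for Yy1. With pan-leukocyte scaling, the log2 fold change was -2.60 for Aurkaip1, -2.83 for Chchd1, -3.33 for Dap3, -2.98 for Esrra, -3.49 for Gabpb1, -2.73 for Gadd45gip1, -3.07 for Lars2, -3.24 for Mrpl10, -2.82 for Mrpl11, -2.50 for Mrpl12, -2.85 for Mrpl23, -3.57 for Mrpl28, -2.17 for Mrpl33, -2.18 for Mrpl35, -2.21 for Mrpl36, -3.11 for Mrpl44, -2.72 for Mrpl45, -2.38 for Mrpl47, -2.21 for Mrpl54, -3.0 for Mrpl58, -3.03 for Mrps10, -2.69 for Mrps12, -3.19 for Mrps18a, -3.33 for Mrps18b, -2.26 for Mrps18c, -2.55 for Mrps21, -2.55 for Mrps22, -2.22 for Mrps28, -3.15 for Mrps30, -2.79 for Mrps36, -3.37 for Mrps7, -2.11 for Myc, -2.83 for Mycn, -3.06 for Nrf1, -3.39 for Polrmt, -2.50 for Ppargc1b, -0.83 for Syk, -3.56 for Tfam, -2.82 for Tufm, -3.13 for Yy1, -0.54 for mt-Rnr1 and -0.70 for mt-Rnr2. With library size only, the log2 fold change was -0.25 for Dap3, -0.43 for Gabpb1, -0.029 for Lars2, -0.11 for Mrpl10, -0.49 for Mrpl28, -0.0045 for Mrpl44, -0.0019 for Mrps10, -0.11 for Mrps18a, -0.27 for Mrps18b, -0.092 for Mrps30, -0.32 for Mrps7, -0.33 for Polrmt, -0.49 for Tfam and -0.010 for Yy1. With at least 10 counts in every library and with the DESeq2 Wald test, Mrpl28 was at -0.020 and -0.00016 and Tfam at -0.023 and -0.0027. With 1 library left out in turn, signs turned within ranges of -0.53 to 0.094 for Gabpa, -0.24 to 1.4 for Lars2, -0.016 to 0.067 for Mrpl28, -0.43 to 0.063 for Mrpl38, -0.14 to 0.51 for Polrmt and -0.095 to 0.19 for Tfam. With 2 libraries per genotype, calls near the threshold rest on the spread within a pair of libraries, and every member had at least 130 counts in each library.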
